A study of Mus musculus with 22 samples.

Results

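Astrocytes are the glial cells that clear glutamate and potassium from synapses, hold water and gap junction channels in their endfeet and supply neurons with lipids and metabolites. In the cerebellum a large share of the astrocyte population consists of Bergmann glia, radial cells whose fibres run through the molecular layer alongside the Purkinje cell dendrites. A list of 40 genes known to be expressed in these cells was followed in the brain of mice deficient in circTulp4, a circular RNA made from Tulp4, and of wild-type mice. The members were chosen by symbol, and all 40 were found among the 23033 genes of the table. By role, 2 encode intermediate filaments, 7 are membrane channels, junction or adhesion proteins, 7 are enzymes, 13 are secreted, 3 are receptors, 2 are transcription regulators and 6 bind calcium, metals or lipids or have another cytoplasmic role.

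The circTulp4-deficient (CD) mice carry, in homozygous form, a substitution of the AG acceptor at the backsplice site of circTulp4. The repair template also held a further mutation, in the motif next to the Cas9 target. The line came from 1 mosaic founder male bred to C57BL/6, so that founder and mutation cannot be told apart. The wild-type (WT) mice share the C57BL/6 background, no mouse was treated, and age and sex are not given for these samples. Hippocampus, cortex and cerebellum of 8 mice, 4 of each genotype, gave 22 libraries of 3′ RNA-seq prepared by CelSeq2, a method that barcodes and tags the polyadenylated end of each mRNA. WT mice gave 3 hippocampus, 4 cortex and 4 cerebellum libraries, and CD mice gave 4, 4 and 3.

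The libraries held 2757684 to 8847478 counts over the 1 transcript kept for each named gene, and 11177121 to 36070045 counts over all transcripts of the table. Levels are given in cpm, counts brought to a common library size and scaled by the trimmed mean of M-values (TMM), and 1 gene is never compared with another, since a 3′ count depends on how well each gene's end is captured. The tissue labels were checked on cell type markers, by the thresholds given below. Of the markers of cerebellar granule and Purkinje cells, 10 of 10 were called higher in cerebellum than in hippocampus and in cortex. Of 10 markers of hippocampal and cortical neurons, 9 were called higher in hippocampus than in cerebellum and 8 higher in cortex than in cerebellum. In each of these comparisons 1 was called higher in cerebellum. The genotype labels were checked on the counts of the Tulp4 transcript whose first exon lies in circTulp4 beyond those of a transcript that differs from it in that exon alone. This excess was 1.45 to 13.7 cpm in the WT libraries and 0.141 to 2.62 cpm in all but 1 of the CD libraries. These cpm were taken on the library total without TMM. The lowest WT library, cortex of mouse m244 with 4 counts, lay inside the CD range. The library labelled CD hippocampus of mouse m118 had 3.98 cpm, from 16 counts, so it lay with the WT hippocampi. The cortex and cerebellum libraries of that mouse had 0.897 and 1.55 cpm. The genotype results in hippocampus are given with and without the hippocampus library of m118. Without it the calls between regions described below numbered 3 of the 3, 17 of the 17 and 17 of the 18. Hippocampus libraries also differed in Ttr, the transthyretin gene of the choroid plexus, which ranged from 121 to 8150 cpm with the highest values in WT mouse m244 and CD mouse m190. Because whole tissue was used, fewer astrocytes and less RNA per astrocyte cannot be told apart in any value that follows.

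Together the 40 genes took 1.61 to 2.72% of the counts of the kept transcripts in a library. Their summed level was 21108 ± 983 cpm in hippocampus (SD, n = 7), 18929 ± 1305 cpm in cortex (n = 8) and 23567 ± 1058 cpm in cerebellum (n = 7). The ranges were 17080 to 20868 cpm in cortex and 22066 to 25098 cpm in cerebellum, so that every cerebellum library lay above every cortex library. Abundant genes weigh most in these sums. Aldoc had means of 5557 cpm in cerebellum and 2472 cpm in cortex, and Mt1 of 4267 and 2700 cpm. Apoe, also abundant, went the other way, with means of 3868 cpm in cerebellum and 5385 cpm in cortex. Of the 39 members tested, 20 had a lower estimate in cerebellum than in cortex and 19 a higher one (median log2 −0.02). The median within-group SD on the log2 scale was 0.19 over the members and 0.25 over all genes tested, which were not matched for level. The lowest member was Prdx6 at 0.10, with a mean of 253 cpm. The highest was Chrdl1 at 1.02, with a mean of 9.26 cpm.

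**Figure D1:**
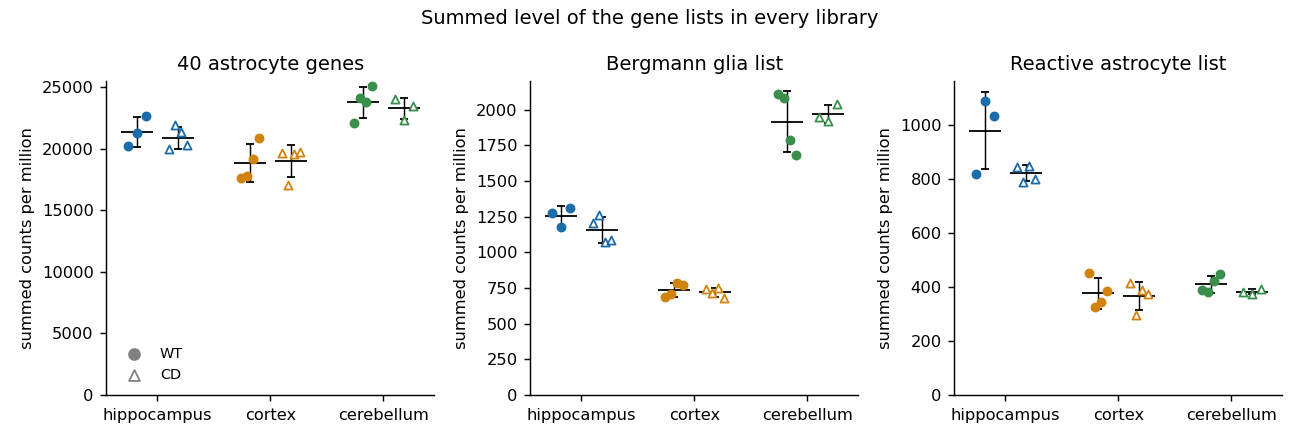
Summed cpm of 3 gene lists in each of the 22 libraries by region (filled circles WT, open triangles CD, bars mean ± SD of the group). The 40 astrocyte genes sum to between 17080 and 25098 cpm, the Bergmann glia list is highest in cerebellum, and the reactive astrocyte list is highest in hippocampus, where Gfap makes up 630 of 889 cpm (without Gfap the list sums to 259 cpm in hippocampus, 201 cpm in cortex and 239 cpm in cerebellum).

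The regions were compared first, with genotype and region in 1 fit over all libraries. A gene was called where the false discovery rate (FDR) of edgeR's quasi-likelihood test lay below 0.01 and the fold was over 2. Of the 40 members 39 passed the filter on low counts; Fabp7, a fatty acid binding protein of radial glia, did not. Between hippocampus and cortex only 3 members were called, 1 of them higher in cortex, where 4.38% of all genes tested were called, and 2 higher in hippocampus, where 4.03% of all genes were. Between hippocampus and cerebellum 17 members were called, 11 higher in cerebellum against 9.77% of all genes, and 6 higher in hippocampus against 13%. Between cortex and cerebellum 18 were called, 13 higher in cerebellum against 9.7% of all genes, and 5 higher in cortex against 12.9%. The median absolute log2 fold change of the members was 0.31, 0.77 and 0.78 in these comparisons, beside 0.23, 0.43 and 0.43 over all genes. By mean level, 12 members were highest in hippocampus, 9 in cortex and 19 in cerebellum. Gdf10 passed the filter only through its cerebellar counts, so that it could only have been tested because it was high there. Chrdl1 passed it within cortex and within cerebellum but not within hippocampus.

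**Figure D2:**
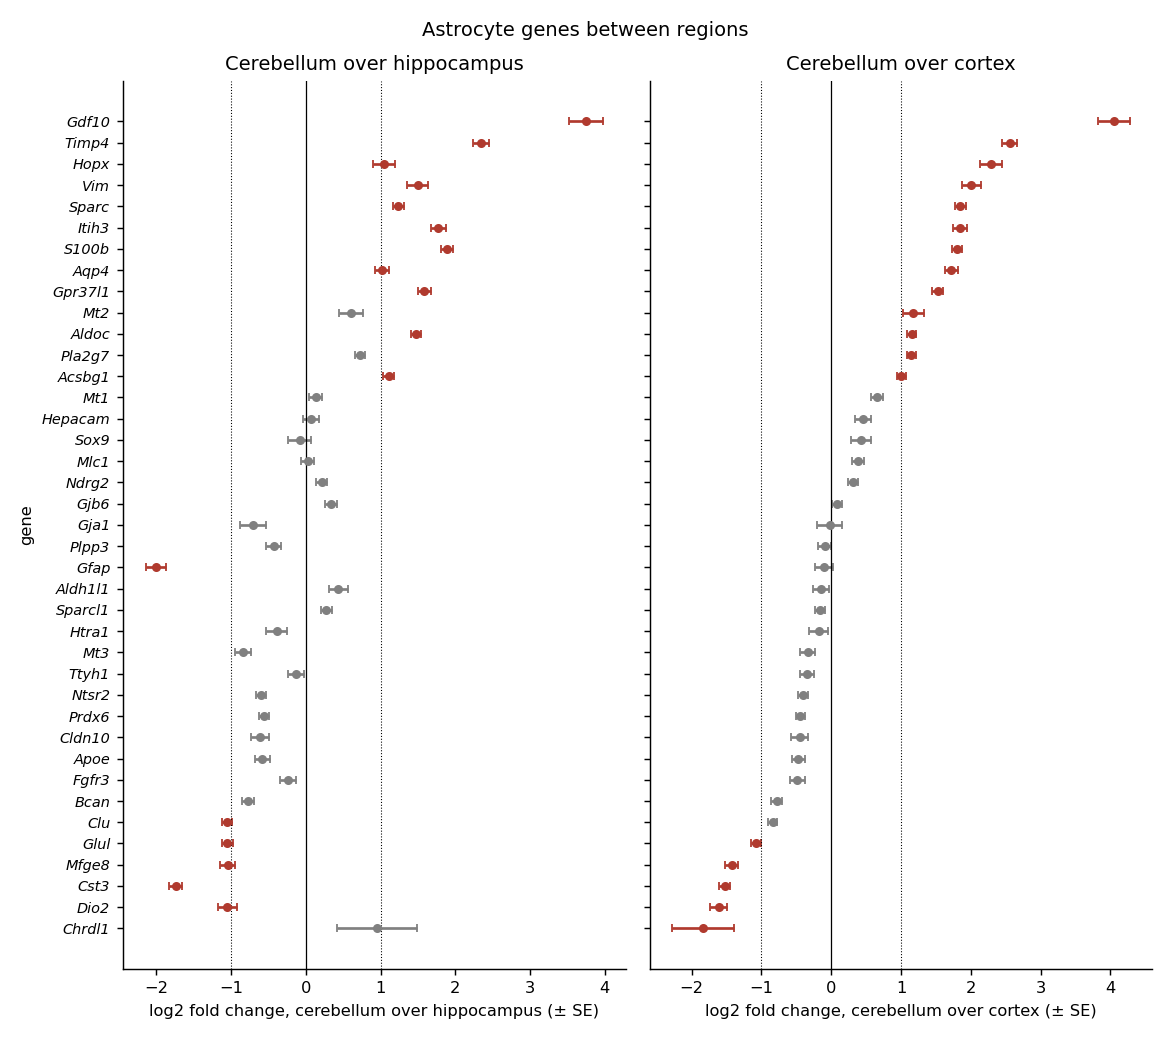
Log2 fold change of the 39 members tested, cerebellum over hippocampus (left) and over cortex (right), with standard errors; red marks genes past both thresholds and dotted lines mark a fold of 2. Gdf10 stands at the top of both panels at 3.75 and 4.05, and Gfap is called in the left panel alone, at −2.00 against −0.10.

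The filament genes Gfap and Vim moved in opposite directions between hippocampus and cerebellum. Gfap encodes glial fibrillary acidic protein, the main intermediate filament of mature astrocytes, and lies at chr11:102887336-102897200 on the minus strand of GRCm38. It measured 527, 605 and 825 cpm in hippocampus (lowest, median and highest of 7 libraries), 99.8, 173 and 229 cpm in cortex (n = 8) and 130, 156 and 196 cpm in cerebellum (n = 7). The lowest hippocampus library was thus above the highest library of both other regions, while cortex and cerebellum overlapped. Gfap was 3.73-fold lower in cortex than in hippocampus (log2 −1.90 ± 0.13 SE, FDR = 1.3e-11) and 4.01-fold lower in cerebellum (log2 −2.00 ± 0.14, FDR = 2.6e-12), and cerebellum and cortex did not differ past the threshold (log2 −0.10 ± 0.13, FDR = 0.50). Leaving out any single library kept the log2 difference between cortex and hippocampus within −1.98 and −1.81.

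Vim encodes vimentin, a filament protein that Bergmann glia keep into adulthood and that endothelial cells also make. It measured 15.2, 18.2 and 25.7 cpm in cerebellum (lowest, median, highest), 4.58, 6.82 and 8.37 cpm in hippocampus and 3.51, 4.74 and 5.65 cpm in cortex. The cerebellum libraries lay apart from all others. Vim was 2.82-fold higher in cerebellum than in hippocampus (log2 1.50 ± 0.14, FDR = 5.8e-10) and 4.02-fold higher than in cortex (log2 2.01 ± 0.14, FDR = 2.6e-12). In cortex it was 1.42-fold lower than in hippocampus, the direction of Gfap there, with overlap and below the 2-fold limit (log2 −0.51 ± 0.15, FDR = 0.0081). Of the 10 endothelial and mural markers tested, 0 were called higher in cerebellum in either comparison, beside 9.77% and 9.7% of all genes. Of the 8 meningeal markers tested, 3 were called higher in cerebellum than in hippocampus and 0 higher than in cortex. The part of these cells in the difference of Vim was not tested.

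**Figure D3:**
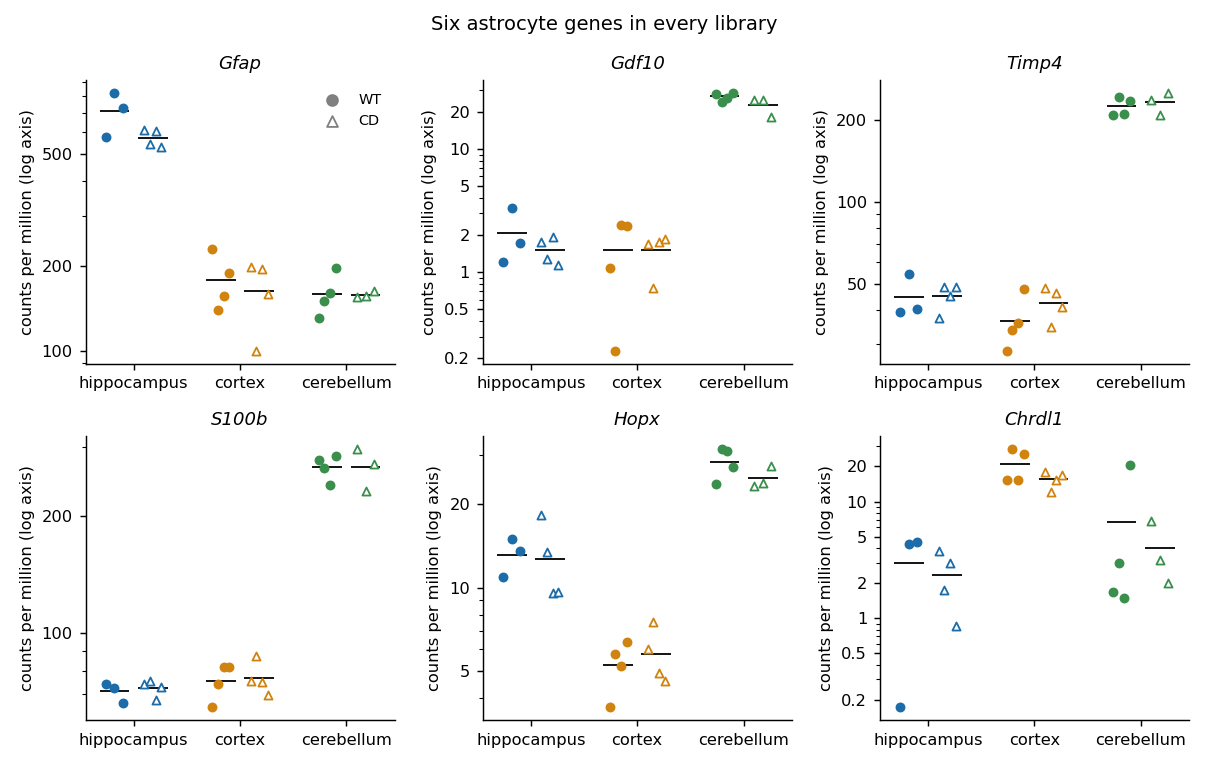
Level in cpm on a log axis of Gfap, Gdf10, Timp4, S100b, Hopx and Chrdl1 in each library by region (filled circles WT, open triangles CD, lines the group means). Gfap is highest in hippocampus, Gdf10, Timp4, S100b and Hopx in cerebellum and Chrdl1 in cortex, where 1 WT cerebellum library of Chrdl1 at 20.7 cpm lies with the cortex libraries.

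Gdf10 and Hopx are the members of the list that also stand on the list of Bergmann glia genes, together with Vim and Fabp7. Gdf10 encodes a growth factor of the TGF-beta superfamily, lies at chr14:33923587-33936514 on the plus strand and is a common marker of Bergmann glia. It measured 18.2, 25.1 and 28.7 cpm in cerebellum and no more than 3.35 cpm in any library of hippocampus or 2.40 cpm in any of cortex. It was 13.4-fold higher in cerebellum than in hippocampus (log2 3.75 ± 0.23, FDR = 2.1e-13) and 16.5-fold higher than in cortex (log2 4.05 ± 0.23, FDR = 5.1e-14), the largest fold among the members tested. Levels in hippocampus and cortex rest on 1 to 28 counts a library.

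Hopx encodes a homeodomain-only protein without DNA binding that marks radial glia. Its levels formed 3 separate ranges, 3.72 to 7.49 cpm in cortex, 9.60 to 18.2 cpm in hippocampus and 23.2 to 31.6 cpm in cerebellum. All 3 differences were called, with hippocampus 2.37-fold over cortex (FDR = 6.0e-07), cerebellum 2.06-fold over hippocampus (FDR = 6.2e-07) and cerebellum 4.89-fold over cortex (FDR = 1.3e-12). It was the only member called in all 3 comparisons. Fabp7, at 0.886 to 2.03 cpm in hippocampus, 0 to 2.18 cpm in cortex and 1.92 to 3.16 cpm in cerebellum, was too low to test; its highest library held 23 counts.

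Among the channels, junction and adhesion proteins, only Aqp4 was called. Aqp4 encodes the water channel of astrocyte endfeet. It ran from 43.9 to 63.3 cpm in cortex, from 69.6 to 102 cpm in hippocampus and from 150 to 213 cpm in cerebellum, so that the regions did not overlap. It was 2.02-fold higher in cerebellum than in hippocampus (log2 1.01 ± 0.09, FDR = 8.1e-10) and 3.30-fold higher than in cortex (log2 1.72 ± 0.09, FDR = 1.8e-14). The connexin genes did not follow it. Gja1, which encodes connexin 43, was at a median of 15.1 cpm in hippocampus, 8.05 cpm in cortex and 8.32 cpm in cerebellum, and the hippocampus was 1.63-fold higher than the cerebellum (FDR = 0.0010), below the 2-fold limit. Gjb6, which encodes connexin 30, lay between 41.3 and 70.9 cpm in all libraries and was 1.26-fold higher in cerebellum than in hippocampus (FDR = 0.00083). Mlc1 and Hepacam, whose products form an endfoot adhesion complex, stood at like levels in hippocampus and cerebellum (log2 0.03 ± 0.08 and 0.07 ± 0.11) and were 1.31-fold and 1.37-fold lower in cortex than in cerebellum. Ttyh1, a chloride channel family member, and Cldn10, a claudin, differed by at most 1.53-fold in any pair of regions.

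The enzymes divided by region. Aldoc encodes aldolase C, a glycolytic enzyme that in the cerebellum is also made by a subset of Purkinje cells. It measured 1898 to 2168 cpm in hippocampus, 2238 to 2687 cpm in cortex and 4879 to 6476 cpm in cerebellum, again with no overlap, and cerebellum was 2.77-fold over hippocampus (log2 1.47 ± 0.07, FDR = 9.6e-16) and 2.23-fold over cortex (log2 1.16 ± 0.06, FDR = 3.5e-14). The part of Purkinje cells in this difference was not tested, and their markers rose with it. Acsbg1, an acyl-CoA synthetase, was 2.16-fold over hippocampus and 2.01-fold over cortex in cerebellum.

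Glul and Dio2 went the other way. Glul encodes glutamine synthetase, which turns the glutamate taken up from synapses into glutamine. It was at 778 to 925 cpm in hippocampus, 813 to 938 cpm in cortex and 341 to 463 cpm in cerebellum. The cerebellum was 2.07-fold lower than hippocampus (log2 −1.05 ± 0.07, FDR = 3.8e-12) and 2.11-fold lower than cortex (log2 −1.08 ± 0.07, FDR = 1.2e-12). Dio2, the deiodinase that activates thyroid hormone in astrocytes, was highest in cortex, at 42.7 to 66.6 cpm, and lowest in cerebellum, at 13.3 to 22.3 cpm (log2 −1.61 ± 0.12, FDR = 1.2e-11). The call of Dio2 between hippocampus and cerebellum (log2 −1.05 ± 0.12) rested on the 2-fold limit and was lost without WT hippocampus m162 (log2 −0.98), without CD cerebellum m118 (log2 −0.99) and in the WT libraries alone (log2 −0.81). Aldh1l1, a folate enzyme that marks astrocytes across the brain, was 1.50-fold higher in cortex than in hippocampus (FDR = 0.00035) and was within 1.11-fold between cortex and cerebellum. The antioxidant gene Prdx6 and the lipid phosphatase gene Plpp3 were 1.47-fold and 1.35-fold lower in cerebellum than in hippocampus.

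Of the 13 secreted proteins, 4 were called higher in cerebellum than in hippocampus (9.77% of all genes) and 3 lower (13%), and 5 were called higher than in cortex (9.7%) and 3 lower (12.9%). Those higher in cerebellum include Gdf10, which passed the filter only through its cerebellar counts. Timp4 encodes an inhibitor of matrix metalloproteinases and lies at chr6:115244444-115252205 on the minus strand. It measured 208 to 253 cpm in cerebellum, 37.5 to 54.3 cpm in hippocampus and 28.3 to 48.3 cpm in cortex. It was 5.08-fold over hippocampus (log2 2.35 ± 0.11, FDR = 8.3e-16) and 5.88-fold over cortex (log2 2.56 ± 0.10, FDR = 7.2e-17). Itih3, which encodes a heavy chain that binds hyaluronan, was 3.42-fold and 3.59-fold higher in cerebellum than in hippocampus and cortex. Sparc, a matrix glycoprotein that limits synapse formation and is also made by endothelial cells and microglia, was 2.36-fold and 3.61-fold higher (835 to 1178 cpm in cerebellum, 361 to 474 cpm in hippocampus, 227 to 317 cpm in cortex). Its relative Sparcl1, which encodes hevin, a protein that promotes synapse formation, did not move with it, being 1.21-fold higher in cerebellum than in hippocampus and 1.12-fold lower than in cortex. Pla2g7, which encodes platelet-activating factor acetylhydrolase, was 2.22-fold over cortex and 1.65-fold over hippocampus.

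Cst3, Clu, Mfge8 and Chrdl1 were lower in cerebellum than in a forebrain region. Cst3 encodes cystatin C, a protease inhibitor that microglia make as well. Its levels were 173, 204 and 248 cpm in cerebellum, against 586, 700 and 767 cpm in hippocampus and 517, 588 and 637 cpm in cortex. The cerebellum was 3.34-fold below hippocampus (log2 −1.74 ± 0.08, FDR = 3.0e-15) and 2.88-fold below cortex (log2 −1.53 ± 0.08, FDR = 2.1e-14). Microglia markers moved with it, as 11 of 11 tested were over 2-fold lower in cerebellum in both comparisons, with a summed level of 279 to 343 cpm in cerebellum against 817 to 982 cpm in hippocampus and 691 to 954 cpm in cortex. Their part in the difference of Cst3 was not tested.

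Clu, which encodes the chaperone clusterin, was 2.08-fold lower in cerebellum than in hippocampus (log2 −1.06 ± 0.07, FDR = 5.9e-13) and 1.78-fold lower than in cortex, and in the CD libraries alone it fell just below the 2-fold limit (log2 −0.98). Mfge8, a bridging protein for phagocytosis, was 2.06-fold and 2.69-fold lower. Apoe, the main lipid carrier of the brain and a gene that microglia also express, was 1.50-fold and 1.38-fold lower in cerebellum, below the 2-fold limit. Bcan, the proteoglycan brevican, was 1.70-fold and 1.72-fold lower, and the protease gene Htra1 differed by at most 1.31-fold.

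Chrdl1 encodes an antagonist of bone morphogenetic proteins that astrocytes of the upper cortical layers release and that promotes synapse maturation. It was at 12, 16.1 and 28.3 cpm in cortex (lowest, median, highest) and at 0.174, 2.95 and 4.47 cpm in hippocampus, so the regions did not overlap, and cortex was 6.88-fold higher (log2 2.78 ± 0.47, FDR = 3.9e-05). In cerebellum 6 libraries lay between 1.49 and 6.77 cpm, and the WT library of mouse m244 lay at 20.7 cpm, within the range of the cortex. The log2 difference between cerebellum and cortex was −1.83 ± 0.44 with that library (FDR = 0.00089) and −2.68 without it. In the WT libraries alone, with FDR = 0.018 against hippocampus and FDR = 0.046 between cerebellum and cortex, Chrdl1 was not called.

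Of the receptors, Gpr37l1 was the only one called. It encodes an orphan receptor that is abundant in Bergmann glia. Its 669 to 917 cpm in cerebellum lay above the 228 to 326 cpm of hippocampus and the 235 to 371 cpm of cortex, a 3.00-fold (log2 1.59 ± 0.09, FDR = 4.9e-14) and 2.88-fold difference (log2 1.53 ± 0.08, FDR = 3.5e-14). Fgfr3, a fibroblast growth factor receptor, and Ntsr2, a neurotensin receptor of astrocytes, were 1.40-fold and 1.32-fold lower in cerebellum than in cortex. Sox9, the transcription factor that specifies glia, had overlapping ranges in all regions (353 to 501 cpm in cortex, 398 to 765 cpm in hippocampus and 288 to 657 cpm in cerebellum) and was within 1.42-fold in all 3 pairs.

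S100b encodes a calcium-binding protein of astrocytes that mature oligodendrocytes also make. It was at 231, 270 and 296 cpm in cerebellum, 66.4, 72.9 and 75.6 cpm in hippocampus and 64.9, 75.3 and 87.5 cpm in cortex. The cerebellum lay apart, at 3.70-fold over hippocampus (log2 1.89 ± 0.08, FDR = 1.2e-16) and 3.49-fold over cortex (log2 1.80 ± 0.07, FDR = 1.1e-16). Of the 12 oligodendrocyte markers, 12 had a lower estimate in cerebellum than in hippocampus, 8 of them called, with a summed level of 2184 to 3126 cpm in cerebellum and 3903 to 6168 cpm in hippocampus. Against cortex, at 1414 to 3035 cpm, 9 of the 12 had a higher estimate in cerebellum (median log2 0.22) and 0 were called, while 3 passed the FDR limit below 2-fold, Cnp (log2 0.87) and Ugt8a (log2 0.49) higher and Opalin (log2 −0.78) lower in cerebellum. Their part in the difference of S100b was not tested. Ndrg2, a cytoplasmic protein of astrocytes, was within 1.24-fold in all pairs.

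The 3 metallothionein members lie next to each other on chromosome 8 and did not share 1 pattern. Metallothioneins are small cysteine-rich proteins that bind zinc and copper. Mt1 and Mt2 are induced by metals and glucocorticoids in many cells, by metals through metal response elements in the promoter. Mt3 is largely restricted to the brain and is not induced by metals in that way. The 250 bases before the RefSeq starts of Mt3 and Mt2 (GRCm38.p6, plus strand, 5′ to 3′) are shown so that the neighbours can be compared, with every match to the 7-base core of the metal response element in capitals (TGCGCNC or TGCACNC, searched on both strands).
Mt3 at chr8:94152357-94152606: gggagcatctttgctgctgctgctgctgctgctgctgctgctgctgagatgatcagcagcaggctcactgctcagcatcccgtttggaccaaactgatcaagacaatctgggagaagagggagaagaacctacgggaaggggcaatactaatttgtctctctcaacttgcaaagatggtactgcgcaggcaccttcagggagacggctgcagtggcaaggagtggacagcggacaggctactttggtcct
Mt2 at chr8:94172368-94172617: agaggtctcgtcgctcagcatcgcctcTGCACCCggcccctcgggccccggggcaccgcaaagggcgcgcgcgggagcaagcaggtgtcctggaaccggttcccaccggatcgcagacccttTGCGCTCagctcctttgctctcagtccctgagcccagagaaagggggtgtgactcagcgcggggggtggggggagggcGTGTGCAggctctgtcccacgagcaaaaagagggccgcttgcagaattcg

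The core occurred 3 times in the Mt2 window and 0 times in the Mt3 window, while 21.4% of the 32851 mouse promoters in the same RefSeq table held at least 1 in the 250 bases before the start and 1.26% held at least 3. Of the 42 promoters listed for 34 of the members, 6 held a core. For Mt1, the RefSeq gene begins inside the window listed as its promoter, so that the window holds transcribed bases and is not shown. A match is a description of letters and not of binding.

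Mt2 was at 453 to 727 cpm in hippocampus, 252 to 480 cpm in cortex and 631 to 1132 cpm in cerebellum. It was 2.26-fold higher in cerebellum than in cortex (log2 1.18 ± 0.15, FDR = 2.6e-07), and overlapped between cerebellum and hippocampus (1.52-fold, FDR = 0.0017). Mt1 had the same order of means, 4267 ± 776 cpm in cerebellum, 3857 ± 290 cpm in hippocampus and 2700 ± 179 cpm in cortex, with a 1.57-fold difference between cerebellum and cortex (FDR = 3.6e-07). Mt3 had another order. It was highest in hippocampus, at 68.1 to 102 cpm, followed by cortex at 49.2 to 75.0 cpm and cerebellum at 36.5 to 55.7 cpm, and was 1.78-fold lower in cerebellum than in hippocampus (log2 −0.83 ± 0.11, FDR = 2.1e-07), below the 2-fold limit. In WT cerebellum the library of mouse m244 was the highest of 4 for Mt1, Mt2 and Mt3.

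**Figure D4:**
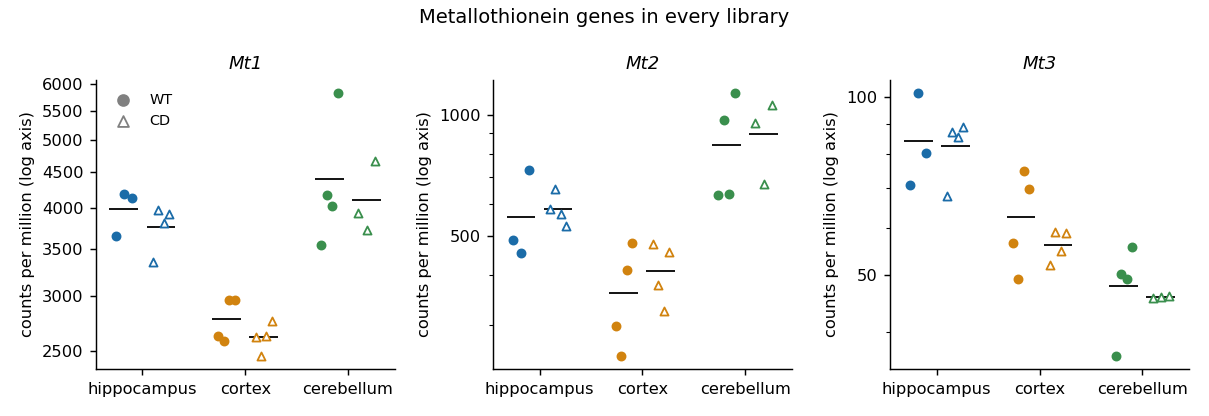
Level in cpm on a log axis of Mt1, Mt2 and Mt3 in each library by region (filled circles WT, open triangles CD, lines the group means). Mt1 and Mt2 have their highest means in cerebellum and their lowest in cortex, and Mt3 falls from hippocampus at 83.3 cpm to cerebellum at 47.0 cpm.

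Other lists of astrocyte genes were counted in the same fit. Of 46 further astrocyte genes 41 were tested, of which Cyp4f14 passed the filter only with cerebellum. Between hippocampus and cerebellum 9 were called in each direction (9.77% of all genes higher in cerebellum, 13% in hippocampus). Between cortex and cerebellum 10 were higher in cerebellum and 9 in cortex (9.7% and 12.9%), and between hippocampus and cortex 2 were higher in cortex and 1 in hippocampus. The glutamate transporter gene Slc1a2 was among those lower in cerebellum (log2 −1.76 ± 0.08 against hippocampus and −1.91 ± 0.08 against cortex), as were the GABA transporter gene Slc6a11 (−2.01 ± 0.12 and −1.70 ± 0.12) and the Notch effector gene Hes5 (−2.35 ± 0.19 and −2.77 ± 0.18). Those higher in cerebellum included Grin2c, an NMDA receptor subunit gene that granule cells also express (2.83 ± 0.11 and 2.89 ± 0.11), the glycine transporter gene Slc6a9 (1.42 ± 0.09 and 1.63 ± 0.09) and Megf10, a phagocytic receptor gene (1.64 ± 0.12 and 2.07 ± 0.12).

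Of the 13 genes on the Bergmann glia list 11 were tested, and 9 were higher in cerebellum than in hippocampus and 8 higher than in cortex. Only 7 of the 11 would pass the filter on hippocampus and cortex libraries; A2m, Gdf10, Gli1 and Tnc passed only with cerebellum, where they are high, so that these counts are not read against the share of all genes. Besides Gdf10, Hopx and Vim those higher in cerebellum included A2m, an alpha-2-macroglobulin gene (log2 4.80 ± 0.32 against cortex), Septin4 (1.90 ± 0.09) and the AMPA receptor gene Gria4 (2.50 ± 0.08), while Gria1, which hippocampal neurons also express, was higher in hippocampus (−1.59 ± 0.14, cerebellum over hippocampus).

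Of 31 reactive astrocyte genes, which include Gfap and Vim, only 16 were abundant enough to test. Between hippocampus and cerebellum 5 were called higher in hippocampus (Gfap, Serpina3n, Fkbp5, Amigo2 and Cd109), beside 13% of all genes, and 4 higher in cerebellum (Vim, H2-D1, Sphk1 and B3gnt5), beside 9.77%, with a median log2 of 0.03 over the list. Sphk1 and B3gnt5 passed the filter only with cerebellum. Serpina3n, a protease inhibitor gene that astrocytes raise after injury, had the largest fold among those higher in hippocampus, with a range of 41.9 to 69.8 cpm in hippocampus, 5.58 to 12.3 cpm in cortex and 0.349 to 2.40 cpm in cerebellum (log2 −2.73 ± 0.17 for cortex over hippocampus and −5.39 ± 0.23 for cerebellum over hippocampus).

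The genotype comparison asked whether the lowering of circTulp4 moved these genes in any region. The paper reports that CD brains keep part of their circTulp4, made from a cryptic acceptor, so complete loss was not studied. Each region was fitted alone. In hippocampus 0 of 37 members tested were called (0% of all genes), and 3 of 37 had an unadjusted p below 0.05, where 4.22% of all genes did. In cortex 0 of 38 were called (0% of all genes), and 0 of 38 had an unadjusted p below 0.05, beside 3.32% of all genes. In cerebellum 0 of 39 were called (0% of all genes), and 3 of 39 had an unadjusted p below 0.05, beside 4.55% of all genes. The smallest FDR of edgeR's quasi-likelihood test was 0.98 among the members of any region, and DESeq2 also called 0 members in each. The median log2 fold change, CD over WT, was −0.04 in hippocampus, 0.01 in cortex and 0.00 in cerebellum, where the medians over all genes were −0.01, 0.00 and 0.00. Without the CD library of mouse m118 the hippocampal median was 0.02, and 0 of 37 members were called.

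Gfap in hippocampus did not pass the correction, with a lower mean in CD. The WT hippocampi measured 576, 725 and 825 cpm and the CD hippocampi 527, 540, 605 and 609 cpm, so that the lowest WT library fell inside the CD range. The log2 fold change was −0.31 ± 0.13 (edgeR quasi-likelihood test, unadjusted p = 0.033, FDR = 0.998). Without the CD library of mouse m118 it was −0.34 (unadjusted p = 0.032), and leaving out any 1 of the 7 libraries gave values from −0.44 to −0.19. In cortex (WT 139 to 229 cpm, CD 99.8 to 197 cpm) and cerebellum (WT 130 to 196 cpm, CD 155 to 163 cpm) the genotypes overlapped, with log2 fold changes of −0.14 ± 0.20 and −0.01 ± 0.13.

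The other hippocampal members with an unadjusted p below 0.05 were Vim and Dio2. Vim was at 7.74, 7.83 and 8.37 cpm in WT and at 4.58, 5.47, 5.57 and 6.82 cpm in CD hippocampi (log2 −0.51 ± 0.21, FDR = 0.998 by edgeR). The counts behind these levels were 22 to 70 a library. Dio2 was at 26.8, 30.3 and 37.2 cpm in WT and 34.6, 37.5, 41.6 and 49.4 cpm in CD (log2 0.37 ± 0.16, FDR = 0.998), and the highest of these was the CD library of mouse m118. Without that library the unadjusted p of Vim was 0.056 and that of Dio2 was 0.088, and 2 of the members had an unadjusted p below 0.05, Gfap and Ttyh1, of which Gfap was among the 3 of the full set, beside 4.43% of all genes. The count fell to 0 without WT hippocampus m240, and to 1 without CD hippocampus m138, CD hippocampus m242 or WT hippocampus m244.

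In cerebellum, the 3 members were Ttyh1, Sparc and Gpr37l1. Ttyh1 was at 188, 194, 213 and 220 cpm in WT and 154, 159 and 168 cpm in CD (log2 −0.34 ± 0.10, unadjusted p = 0.0038, FDR = 0.98 by edgeR). Sparc was at 998, 1054, 1103 and 1178 cpm in WT and 835, 909 and 958 cpm in CD (log2 −0.26 ± 0.10, FDR = 0.98). Gpr37l1 had the opposite sign, at 813, 859 and 917 cpm against 669, 737, 745 and 812 cpm in WT (log2 0.22 ± 0.10, FDR = 0.98), with the nearest libraries almost level.

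In cortex the members with the smallest p were Chrdl1 (log2 −0.42 ± 0.22, with WT at 15.3 to 28.3 cpm and CD at 12 to 18.1 cpm), Gpr37l1 (log2 0.23 ± 0.13) and Gja1 (log2 0.43 ± 0.27). In Gja1, 1 CD library stood apart, that of mouse m118 at 15.6 cpm, whereas the other CD cortices lay at 7.79 to 8.26 cpm and the WT cortices at 5.75 to 8.29 cpm. Prdx6 did not overlap between genotypes in cortex, at 241 to 270 cpm in WT and 270 to 288 cpm in CD, but its unadjusted p was 0.23 by edgeR. The share of all genes without overlap between genotypes was not counted.

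**Figure D5:**
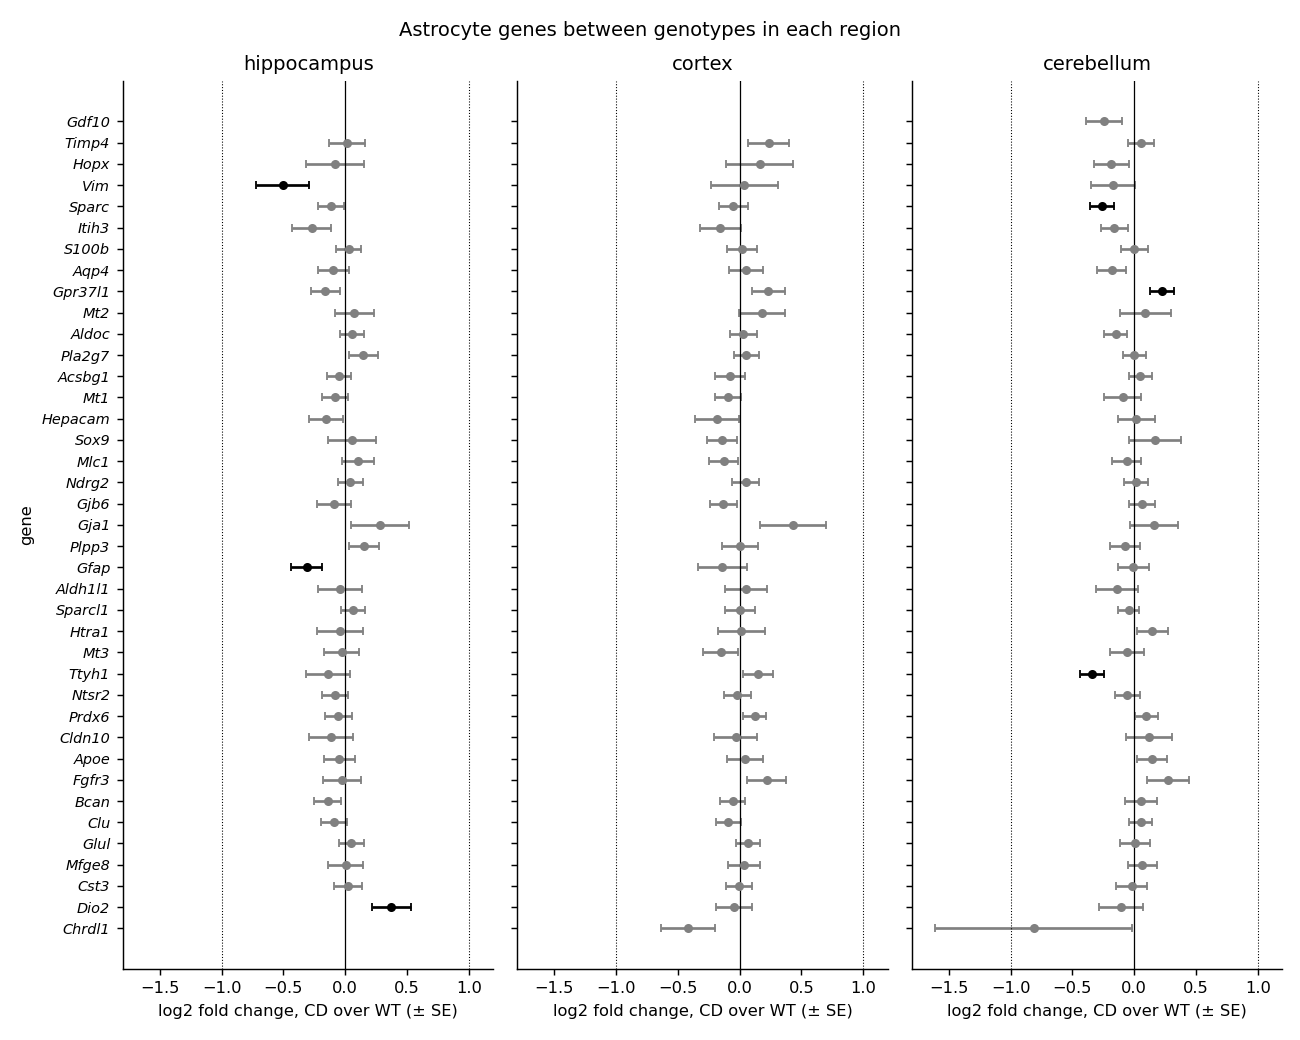
Log2 fold change of the members, CD over WT, with standard errors in hippocampus, cortex and cerebellum, ordered as in the plot of regional differences; black marks an unadjusted p below 0.05 and dotted lines a fold of 2. Of the 3 black points in hippocampus and the 3 in cerebellum none reaches a 2-fold difference.

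Over all regions, with the mouse as a block in limma-voom, 0 of 39 members were called (0% of all genes) and 2 had an unadjusted p below 0.05, beside 3.57% of all genes. These were Itih3 (log2 −0.20 ± 0.08) and Sparc (log2 −0.15 ± 0.06), both with FDR = 0.9996. The genotype by region interaction passed an FDR of 0.05 for 0 of 39 members and for 0% of all genes tested. Gpr37l1 alone among the members had an unadjusted interaction p below 0.05, beside 3.92% of all genes. Its interaction had an FDR of 0.999 by edgeR. Its log2 fold changes, CD over WT, were −0.16 ± 0.12 in hippocampus, 0.23 ± 0.13 in cortex and 0.22 ± 0.10 in cerebellum.

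The summed level of the 40 members did not separate the genotypes in any region, at 21375 ± 1228 cpm in WT (n = 3) and 20908 ± 896 cpm in CD hippocampus (n = 4), 18851 ± 1516 cpm in WT (n = 4) and 19006 ± 1287 cpm in CD cortex (n = 4), and 23783 ± 1266 cpm in WT (n = 4) and 23278 ± 858 cpm in CD cerebellum (n = 3). The differences were smaller than the SD of either group, also without the CD hippocampus of mouse m118 (21208 ± 815 cpm, n = 3). Of the other astrocyte lists, 0 genes were called in any region. The reactive list summed to 979 ± 142 cpm in WT (n = 3) and 821 ± 30 cpm in CD hippocampus (n = 4), with Gfap at 709 and 570 cpm. Of its 14 genes tested there, 12 had a lower estimate in CD (median log2 −0.28), as did 6 of 12 in cortex and 10 of 13 in cerebellum. Over all regions the estimate was lower in CD for 10 of 11 Bergmann glia and 23 of 41 further astrocyte genes, where the median log2 over all genes was −0.001. By region it was lower for 6 of 7 Bergmann glia genes in hippocampus, 4 of 7 in cortex and 6 of 11 in cerebellum (median log2 −0.07). A2m, Gdf10, Gli1 and Tnc, counted among the 11, passed the filter only with cerebellum. These directions were not tested. By unadjusted p, 1 of 40 further astrocyte genes passed 0.05 in hippocampus, 0 of 39 in cortex and 3 of 40 in cerebellum, 1 of 7 Bergmann glia genes in hippocampus, 0 of 7 in cortex and 0 of 11 in cerebellum, and 3 of 14 reactive genes in hippocampus, which include Gfap and Vim, 1 of 12 in cortex and 0 of 13 in cerebellum. Without the CD hippocampus of mouse m118 these hippocampal counts were 3 of 40, 0 of 7 and 3 of 14.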

How the data were processed

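The RNA of hippocampus, cortex and cerebellum of WT and CD mice was measured by CelSeq2 3′ RNA-seq with 6-base molecular identifiers. Raw counts per RefSeq transcript were deposited by the authors, who used STAR for alignment (mouse build mm10) and the End Sequence Analysis Toolkit for counting; tool versions, annotation release, collapsing of identifiers and the handling of reads shared between transcripts or overlapping genes are not given in the sources used here, so that counts may include PCR copies. Of 85964 transcripts, 69280 (80.6%) were matched by accession without version to 23033 genes of the RefSeq annotation of GRCm38, and the unmatched ones held 18.6% of the counts. Transcripts of 1 gene could hold nearly the same counts, as for Aldoc with 430073 and 430071. Sums over all transcripts may therefore hold the same reads more than once. For each gene, the transcript with the largest sum over all libraries was kept. The library of each mouse, genotype and region was taken from the sample titles; the series text gives 1 library fewer for each group, and all 22 were used here.

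A gene was tested where 2 or more libraries reached 5 cpm (13.8 to 44.2 counts at these depths), 11133 for regions and 9960, 9924 and 10137 within hippocampus, cortex and cerebellum. edgeR 4.0.16 in R 4.3.3 was used with TMM and the quasi-likelihood test, with p-values adjusted by Benjamini-Hochberg over all genes tested and thresholds of FDR below 0.01 and fold over 2 or below 0.5. SEs of log2 fold changes came from the F statistic. Genotype over all regions was tested with limma 3.58.1 (voom, mouse as block, correlation 0.03), and the interaction was called at an FDR below 0.05. DESeq2 1.42.0, other scalings and filters, left-out libraries and summed transcripts were alternatives. The members and all lists were chosen with earlier results of these data known. Genes named with values were Gfap, the 6 members with the largest called fold in each direction per pair of regions, the 3 with the smallest genotype p per region and the members on the Bergmann glia list; the metallothioneins and other members were added after their values were seen. Same-numbered libraries come from the same mouse by the titles. The correlation of their deviations from the group means averaged 0.04 over 20 pairs (−0.08 to 0.18). Genotypes share no mouse. The scripts were tested on simulated data. Coordinates and promoter sequences are from RefSeq (GRCm38.p6), in Python 3 with pandas.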

Additional observations from a re-analysis of the deposited data

Results flagged for a closer look

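Among 22 members given library by library and their summed level, 92 groups of 4 libraries were searched for a library far from the rest, by Dixon's ratio of the gap to the range at its 95% limit, and 7 groups held one; chance gives this in about 5% of groups. In WT cerebellum, Chrdl1 was at 20.7 cpm in mouse m244 and at 1.49 to 2.97 cpm in the other 3 libraries. In CD cortex, the library of mouse m138 was low for Clu (902 cpm against 1095 to 1111 cpm), for Gdf10 (0.749 cpm against 1.70 to 1.88 cpm) and for the summed level of the 40 members (17080 cpm against 19531 to 19736 cpm), while the library of mouse m118 was high for Gja1 (15.6 cpm against 7.79 to 8.26 cpm). In WT cortex, Cst3 was at 616 cpm in mouse m244 against 585 to 587 cpm in the others. In CD hippocampus, Ttyh1 was at 268 cpm in the library of mouse m118, the one whose Tulp4 counts lay with the WT libraries, and at 153 to 170 cpm in the other 3.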

How the results depend on the processing

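With RLE scaling, no filter, DESeq2, the likelihood ratio test, summed transcripts or the mouse as replicate block, 3 members were called between hippocampus and cortex, 17 between hippocampus and cerebellum and 17 or 18 between cortex and cerebellum, and the replicate block gave 3, 17 and 18, all shared with the fit without it. The block changed no other call, and the interaction had 0 members with or without it. In the WT libraries alone the counts were 2, 16 and 16 and in the CD libraries alone 3, 14 and 18, all of them among the members called in the full set. Without the pair of hippocampus libraries with the most Ttr, an alternative chosen after seeing the data, they were 3, 16 and 18. Leaving out 1 library at a time gave 3, 14 to 17 and 17 to 18. In the WT libraries alone Chrdl1 lost its calls (log2 2.75, cortex over hippocampus, FDR = 0.018 by edgeR, and −1.64, cerebellum over cortex, FDR = 0.046 by edgeR). For genotype, 0 members were called in any alternative run. The number with an unadjusted p below 0.05 was 3 in hippocampus and ranged from 0 (without WT m240) to 3 over left-out libraries, with 1 without CD m138, CD m242 or WT m244. In cortex it was 0 and ranged from 0 to 2 (without WT m240), with 1 without WT m162, CD m190 or WT m244 and 1 with no filter; in cerebellum it ranged from 2 to 3. The fold change of Gfap, CD over WT on the log2 scale, changed sign under some alternatives without being called in any. In cortex it was −0.14 and ranged from −0.24 (without CD m118) to 0.038 (without CD m138), with 0.01 without WT m162. In cerebellum it was −0.0067 and ranged from −0.094 (without WT m162) to 0.108 (without WT m244), with 0.0059 without CD m118, 0.0015 without CD m190, 0.00058 with no filter and 0.036 with summed transcripts. Divided by the library total in place of TMM, the summed level of the members was 17621 cpm in cortex and 25860 cpm in cerebellum (18929 and 23567 cpm with TMM). The causes of these shifts were not tested. Members with an unadjusted p below 0.05 differed by at most 0.51 on the log2 scale between genotypes, and the smallest difference that 3 or 4 mice a group can call was not tested. The levels of Gdf10, Fabp7 and Chrdl1 outside their main region rest on few counts.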
